A study of Mus musculus with 12 samples.

Results

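The genes described here build the acrosome of the sperm head or act when sperm meets the egg, and they were followed in germ cell and Sertoli cell fractions of testes from mice labelled TAp73 knock-out and from control mice. The members were chosen by name: 38 symbols were listed, and every array probe whose accession maps to one of them was taken. They matched 44 probes of 37 genes, out of 39429 probes on the array and 25035 genes tested. Both Eqtn and the spelling Equatn were listed, and the second matched no probe. For 6 of the genes several probes were present (3 for Acrbp, 2 each for Eqtn, Fam71f1, Izumo3, Spaca1 and Zpbp2), and the probe of highest mean signal stands for the gene.

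The acrosome is a secretory vesicle that forms from the Golgi apparatus in round spermatids and flattens over the nucleus as the spermatid elongates. Near the egg it fuses with the overlying plasma membrane, which releases proteases and hyaluronidases and uncovers the membrane proteins that bind and fuse with the egg. A protein shell between acrosome and nucleus, the perinuclear theca, holds the vesicle in place, and its transcripts, like most acrosomal ones, are made after meiosis.

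RNA came from 4 groups of 3 arrays: KO germ cells, control germ cells, KO Sertoli cells and control Sertoli cells, with both fractions from each of 6 male C57BL/6J mice. The KO mice were 120 (4 months old), 86 and 72 (8 months old each), and per-array values below are in that order. The control mice, all with the source name wildtype, were 99 (5 months old, titled WT), 73 and 74 (8 months old each, both titled het), again in that order. TAp73 is the long form of p73, a relative of p53 encoded by Trp73. The labels give neither the allele nor how the fractions were prepared. Each of the 3 slides held both fractions of 1 KO and 1 control mouse (120 and 99, 86 and 73, 72 and 74), and the third slide was scanned on another day.

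Levels below are log2 signal relative to the array's 75th percentile, given as mean ± SD over 3 mice unless single arrays are listed, and levels of different probes are not comparable. Between 64.1% and 68.4% of probes were well above background on Sertoli arrays, and between 73.3% and 78.9% on germ arrays. The 75th percentile of signal lay between 2863 and 5350 units on 11 arrays and was 1355 units on the control Sertoli array of mouse 74. On that array the lowest signal well above background stood at -6.19, against -8.74 to -7.61 on the other Sertoli arrays, so its dim probes read higher on this scale.

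Trp73 signal was not lower on average in mice labelled KO. Probe A_52_P193555 read -2.76, -2.56 and -3.29 on KO germ arrays. It read -9.40, -3.63 and -4.15 on control germ arrays, all below the KO readings. The 6 arrays labelled KO all detected it, and neither array of mouse 99, the mouse titled WT, did so. Probe A_55_P1988133 was likewise detected on the 6 arrays labelled KO and not in mouse 99. Its readings there were -8.73 in the germ and -8.52 in the Sertoli fraction, and the other control Sertoli arrays did not detect it either. Probe A_52_P410636 was above background on every array, with -4.28 in the germ and -3.56 in the Sertoli fraction of mouse 99. The missing signal in that mouse thus depends on the probe. Whether the probes lie in the deleted part is not known here, so they check nothing, and KO and control mean only what the libraries are labelled.

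The labelled fractions were set against marker genes. All 9 spermatocyte, 9 round spermatid and 11 elongating spermatid markers fell in Sertoli relative to germ arrays of control mice. Of 19 tested Sertoli cell markers 6 rose, among them Inhbb, Gata4, Sox9 and Wt1, and 11 fell, among them Rhox5, Cst9, Fshr and Gata1. All 7 peritubular myoid markers rose, with summed levels of 544 to 850 on control Sertoli and 29.5 to 36.0 on control germ arrays. Of 12 macrophage and leukocyte markers 3 rose and 6 fell. Their sums were 9.64 to 20.9 on control Sertoli and 45.3 to 55.4 on control germ arrays. Over all tested genes, 39.8% rose and 36.5% fell in this comparison. Of 9 spermatogonia markers 6 fell, with sums of 2.08 to 3.25 on control Sertoli and 6.13 to 7.53 on control germ arrays. The fraction labelled Sertoli was thus low in meiotic and later germ cell transcripts and high in peritubular myoid transcripts. Some defining Sertoli transcripts stood higher in it than in the germ fraction, and others stood lower. In whole fractions, fewer cells of a type and less RNA per cell cannot be told apart.

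Nearly all of the acrosomal genes were far lower in Sertoli arrays. In Sertoli relative to germ arrays 36 of 37 fell in KO mice and 36 of 37 fell in control mice, and 0 rose (limma, adjusted p below 0.05). At an unadjusted p below 0.05, 0 rose in either genotype, where 38.7% of all genes did in KO and 40.6% in control mice. Of all tested genes 37.1% fell and 37.9% rose in KO mice, and 36.5% fell and 39.8% rose in control mice. The members' median log2 difference was -9.64 in KO mice and -9.70 in control mice, against 0.09 and 0.21 over all tested genes. With the genes below background set to their bound, the members' medians were -8.96 in KO mice and -9.11 in control mice. Each of the 37 was well above background on all 6 germ arrays, and 22 of them passed the filter on dim probes through those arrays alone, since no Sertoli group had them above background on all its arrays. For these a difference between fractions follows from the filter, so neither the counts and medians above nor the p-values below are support for it.

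**Figure D1:**
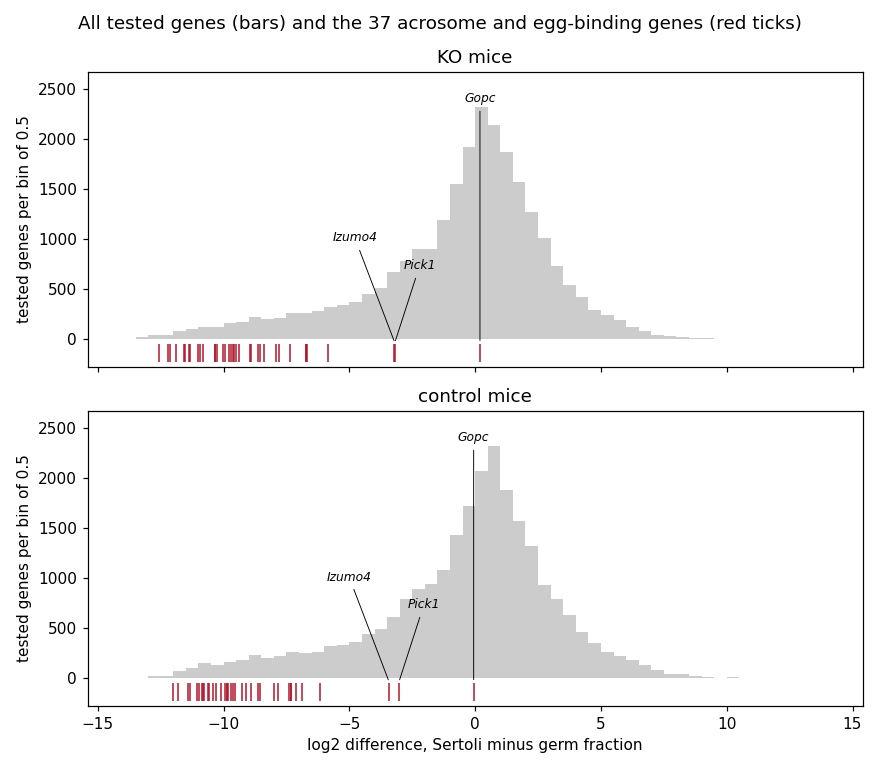
Log2 difference between Sertoli and germ fractions for all tested genes (grey bars, number of genes per bin of 0.5) and for the 37 acrosome and egg-binding genes (red ticks), in KO mice above and control mice below. All but Gopc, Pick1 and Izumo4 lie at -5.87 or lower.

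A total of 17 genes were well above background on none of the 6 Sertoli arrays: Acrv1, Spaca3, Spaca5, Izumo1, Izumo2, Izumo3, Spam1, Hyal5, Spata16, Zp3r, Spesp1, Crisp2, Dpy19l2, Cylc1, Cylc2, Prss21 and Prss55. Their difference is a lower bound, with the germ mean set against each Sertoli array's lowest signal that counts as above background, or against the probe's reading where that is larger. Spata16, a Golgi protein of spermatids needed to form the acrosome, read -9.20, -8.71 and -8.94 on KO Sertoli arrays and 3.41, 3.12 and 3.28 on KO germ arrays. It was at least 2577-fold lower in the Sertoli fraction of KO mice (limma, adjusted p = 2.4e-10).
On control Sertoli arrays Spata16 read -9.37, -8.80 and -7.72, against 3.35, 3.34 and 3.45 on control germ arrays, at least 2019-fold lower (adjusted p = 2.4e-10). Spaca3, a lysozyme-like protein of the acrosome, was at least 3181-fold lower in the Sertoli fraction of KO mice (adjusted p = 9.9e-10) and at least 2992-fold lower in that of control mice (adjusted p = 1.3e-09). Its arrays read -9.09, -8.77 and -9.14 in KO Sertoli and 3.56, 3.62 and 3.55 in KO germ fractions. In controls they read -8.59, -8.39 and -6.48 in Sertoli and 4.32, 3.78 and 3.90 in germ fractions. The groups lie far apart in both genes, and every Sertoli value is at background.

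Prss55, a testis serine protease, read -8.12, -8.65 and -9.03 on KO Sertoli and 3.72, 3.43 and 3.48 on KO germ arrays, at least 2844-fold lower (adjusted p = 4.0e-09). Izumo3, a relative of the fusion protein IZUMO1, read -8.70, -8.70 and -7.38 on control Sertoli and 3.61, 3.1 and 2.80 on control germ arrays, at least 1723-fold lower (adjusted p = 3.3e-10). The bounds ran from 211-fold (Spaca5, KO mice) to 3181-fold (Spaca3, KO mice). Tmprss12 had such a bound in control mice, at least 658-fold lower, and was above background on 1 KO Sertoli array.

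The other end is held by Gopc and Pick1, of the acrosome biogenesis group, and by Izumo4. Spata16 and Dpy19l2, of the same group as Gopc, were at background on the Sertoli arrays. Gopc, a Golgi protein that carries vesicles, read 0.05, 0.31 and 0.46 on KO Sertoli arrays and -0.23, 0.68 and -0.19 on KO germ arrays. Its log2 difference was 0.19 ± 0.36 (SE) in KO mice (95% interval -0.61 to 0.99, adjusted p = 0.648). On control Sertoli arrays Gopc read 0.05, 0.82 and 0.07 and on control germ arrays 1.09, 0.13 and -0.10, a difference of -0.06 ± 0.36 (SE) (95% interval -0.86 to 0.74, adjusted p = 0.886). The arrays of both fractions overlapped in each genotype, and Gopc is the only member that passed in neither.

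Pick1, a partner of GOPC in moving Golgi vesicles to the acrosome, fell by 3.21 log2 units in KO Sertoli relative to KO germ arrays and fell by 3.04 in those of controls. Izumo4, an IZUMO relative, fell by 3.18 in KO mice and fell by 3.41 in control mice. It kept a clear Sertoli signal, 0.26 ± 0.24 in KO and 0.14 ± 0.03 in control fractions. Zpbp, a zona pellucida binding protein of the acrosomal matrix, fell by 5.87 in KO mice and fell by 6.17 in control mice. All other members that fell did so by more than these.

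A total of 15 genes were well above background on all 6 Sertoli arrays: Acr, Acrbp, Dkkl1, Spink2, Spaca7, Zpbp, Zpbp2, Eqtn, Izumo4, Spaca1, Spaca4, Tmem190, Tex101, Pick1 and Gopc. The remaining 5 were so on some, Fam71f1, Actl7a and Actl9 on 4 each, Capza3 on 2 and Tmprss12 on 1. The matrix genes Spink2, an acrosomal protease inhibitor, and Acrbp, which binds the acrosin precursor, had Sertoli levels of -2.26 ± 0.12 and -1.70 ± 0.08 in KO mice. In control mice these were -1.62 ± 0.40 for Spink2 and -1.73 ± 0.39 for Acrbp. All 11 elongating spermatid markers fell too, and between 7 and 9 of them were above background on KO and 10 on control Sertoli arrays. Whether the residual signal is from germ cells in the Sertoli fraction was not tested.

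Promoter sequences were taken from RefSeq (build GRCm38.p6) by symbol, and 31 of 37 members had one. Only the 250 bases before the gene start are used, and where a gene has several starts the most upstream one is printed. The first set shows the 3 genes of largest fitted difference between fractions in control mice, Gopc, the gene that did not pass, and Izumo1. The order of those 3 is not known because their Sertoli signal is at background. Izumo1 encodes the sperm protein that binds the egg receptor JUNO. Alone among the 31 members with a sequence it holds a full cyclic AMP response element (CRE, TGACGTCA). Capitals mark TGACG on either strand, the core of the element bound by CREM, an activator of spermatid genes, and in Izumo1 both strands' cores overlap. The windows of Spata16 and Izumo3 hold no match.
Spata16, chr3:26637381-26637630, plus strand: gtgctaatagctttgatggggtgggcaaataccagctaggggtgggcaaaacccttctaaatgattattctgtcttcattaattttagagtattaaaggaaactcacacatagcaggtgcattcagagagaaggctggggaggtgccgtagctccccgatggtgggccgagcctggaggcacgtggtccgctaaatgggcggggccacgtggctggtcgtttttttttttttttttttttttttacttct
Spaca3, chr11:80858113-80858362, plus strand: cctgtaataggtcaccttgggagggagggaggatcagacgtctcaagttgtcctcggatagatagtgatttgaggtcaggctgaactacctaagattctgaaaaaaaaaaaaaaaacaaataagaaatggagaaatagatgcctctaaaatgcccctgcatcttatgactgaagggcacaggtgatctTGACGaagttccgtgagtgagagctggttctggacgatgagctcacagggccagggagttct
Izumo3, chr4:92147222-92147471, minus strand: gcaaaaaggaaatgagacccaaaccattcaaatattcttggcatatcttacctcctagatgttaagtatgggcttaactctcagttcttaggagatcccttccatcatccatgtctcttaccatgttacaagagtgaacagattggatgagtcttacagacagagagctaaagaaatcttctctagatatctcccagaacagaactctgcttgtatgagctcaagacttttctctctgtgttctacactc
Gopc, chr10:52382125-52382374, minus strand: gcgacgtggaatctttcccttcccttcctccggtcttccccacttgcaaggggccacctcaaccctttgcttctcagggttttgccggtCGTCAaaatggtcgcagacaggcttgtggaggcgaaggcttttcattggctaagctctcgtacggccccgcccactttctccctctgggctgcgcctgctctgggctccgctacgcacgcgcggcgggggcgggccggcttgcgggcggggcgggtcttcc
Izumo1, chr7:45621561-45621810, plus strand: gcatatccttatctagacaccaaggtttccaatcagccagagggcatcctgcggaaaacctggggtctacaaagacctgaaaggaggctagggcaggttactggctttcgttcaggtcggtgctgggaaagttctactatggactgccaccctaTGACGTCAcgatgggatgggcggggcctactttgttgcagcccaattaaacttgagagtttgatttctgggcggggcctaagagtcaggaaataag
Gopc's window holds 22 CpG dinucleotides, the most of any member with a sequence, and Izumo3's holds none. The members' median was 5 and that of 27025 genes was 6. The full CRE was found in 1 of 31 members (3.23%) and in 1.77% of all genes, and TGACG on either strand in 7 of 31 (22.6%) and 19.8% of all genes. GTTGCC, part of the X-box bound by RFX factors, was in 16.1% of members and 11.8% of genes, and ATTGTT, a SOX core, in 19.4% and 10.9%. These are matches of letters and not bound sites.

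The second set shows both members, of the 31 with a sequence, with a half-site of the p53 family, to which TAp73 belongs, in capitals. A gene was counted where any of its windows matched. Spink2 also has starts further downstream, whose windows hold no such half-site. Tmprss12 encodes a membrane serine protease of the testis.
Tmprss12, chr15:100280587-100280836, plus strand: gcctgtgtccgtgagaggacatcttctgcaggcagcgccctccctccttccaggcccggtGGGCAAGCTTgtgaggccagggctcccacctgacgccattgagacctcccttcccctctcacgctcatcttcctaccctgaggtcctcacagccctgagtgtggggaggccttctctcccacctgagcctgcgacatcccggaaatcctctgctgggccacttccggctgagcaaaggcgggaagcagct
Spink2, chr5:77211472-77211721, minus strand: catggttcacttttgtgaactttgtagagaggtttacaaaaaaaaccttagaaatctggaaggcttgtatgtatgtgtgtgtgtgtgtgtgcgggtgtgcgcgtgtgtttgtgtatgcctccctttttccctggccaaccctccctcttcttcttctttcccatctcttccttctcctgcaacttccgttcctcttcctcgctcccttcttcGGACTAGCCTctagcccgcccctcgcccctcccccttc
That half-site was in 2 of 31 members (6.45%) and in 8.2% of all genes. Neither gene passed the threshold between genotypes: in the germ fraction their KO minus control differences were -0.20 ± 0.74 (SE) for Tmprss12 and -0.05 ± 0.24 (SE) for Spink2.

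The main comparison asks how these transcripts differ between mice labelled KO and control. In the germ fraction 0 of 37 members rose and 0 fell (limma, adjusted p below 0.05), where 0.216% of all tested genes rose and 0.00399% fell. At an unadjusted p below 0.05 there were 0 members in either direction, against 6.12% of all genes higher and 1.23% lower. These p-values, and the SE and intervals below, use the spread of a gene pooled over all 4 groups. The members' median SD was 0.82 in control Sertoli and 0.24 in each other group. The SE of a germ difference is thus not the spread of the germ arrays alone. The differences were small and mostly below 0: 35 of 37 members had a lower mean in KO germ arrays, as did 54.5% of all genes. Their median difference was -0.29, against -0.04 over all genes, with a range from -0.75 (Cylc1) to 0.20 (Pick1). No overlap between the arrays, with KO lower, occurred in 13 of 37 members and 9.16% of all genes, and with KO higher in 0 members and 6.57% of genes.

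The lower readings recurred on each slide but their number depended on the scaling. Within slides 1, 2 and 3 the members' median KO minus control difference was -0.49, -0.26 and -0.33, with 27, 32 and 36 of 37 members lower, against medians of -0.08, -0.01 and -0.08 over all genes. Quantile normalisation left 28 of 37 lower (55.6% of all genes) with a median of -0.21. Median centring moved the median of all genes to -0.15 and the members' to -0.40, so the distance between both stayed at -0.25. Over all scalings and left-out mice that distance ran from -0.42 to -0.17. The -0.42 was without both control mice titled het, which leaves only the control mouse titled WT.

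**Figure D2:**
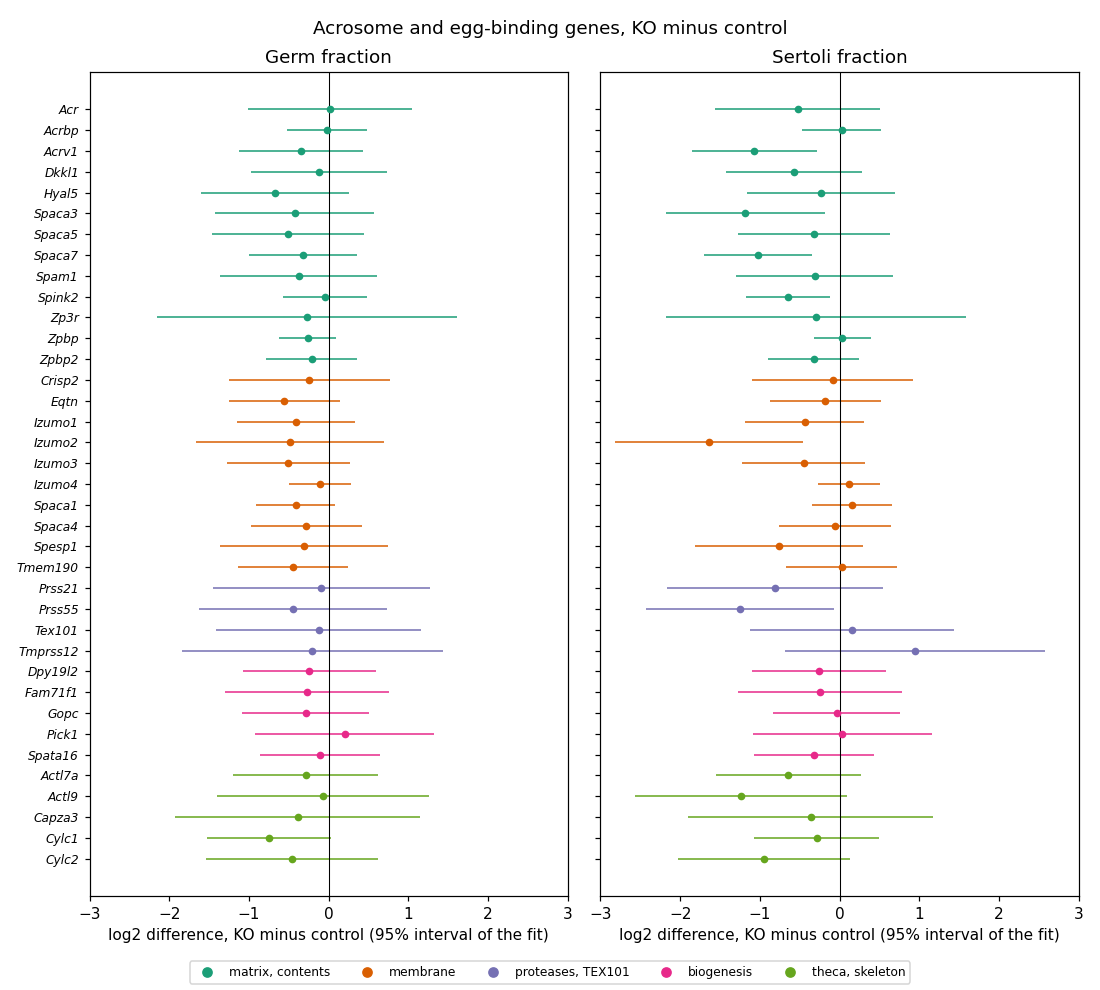
KO minus control log2 difference of each of the 37 genes (points) with the 95% interval of the limma fit (lines), in the germ fraction on the left and the Sertoli fraction on the right, coloured by role. In the germ fraction 35 points lie below 0 and every interval spans 0.

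Markers of other cells moved beside these genes, none of them past the threshold. The elongating spermatid list had a median KO minus control difference of -0.34 in the germ fraction, with 10 of 11 markers lower, and summed levels of 558 to 661 on KO and 624 to 759 on control germ arrays. The 9 round spermatid markers had a median of -0.28 and the 9 spermatocyte markers one of -0.08. Leydig markers had a median of 1.34, with 7 of 7 higher and sums of 11.4 to 16.4 on KO against 5.86 to 9.79 on control germ arrays. Sertoli markers had a median of 0.46, with sums of 161 to 219 on KO and 131 to 171 on control germ arrays. For macrophage and leukocyte markers the median was 0.57, while their sums ran the other way, 40.7 to 41.9 on KO and 45.3 to 55.4 on control germ arrays. Peritubular myoid markers had a median of 0.69 and spermatogonia markers one of -0.04. The part of these shifts in the members' lower readings was not tested.

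Among the acrosomal matrix and vesicle contents, 13 genes, the median germ difference was -0.27 and 0 passed. Dkkl1, an acrosomal glycoprotein, read 6.26, 5.80 and 6.14 on KO and 6.40, 5.92 and 6.23 on control germ arrays, a difference of -0.12 ± 0.39 (SE). Its KO and control arrays overlapped. Zpbp read 2.46, 2.27 and 2.07 on KO and 2.40, 2.69 and 2.5 on control germ arrays, -0.26 ± 0.16 (SE) (adjusted p = 0.898). Hyal5, a hyaluronidase that loosens the cumulus around the egg, read 0.77, 1.26 and 0.17 on KO and 1.59, 1.71 and 0.91 on control germ arrays, -0.67 ± 0.42 (SE) (adjusted p = 0.903). In both the groups overlapped by 1 array.

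Acr, the trypsin-like protease acrosin, averaged 3.55 ± 0.43 in KO and 3.54 ± 0.31 in control germ fractions. Acrbp averaged 5.66 ± 0.30 in KO and 5.69 ± 0.17 in control, and Spink2 5.66 ± 0.28 in KO and 5.70 ± 0.24 in control. The 95% interval of the difference was -0.53 to 0.48 for Acrbp and -0.57 to 0.48 for Spink2. Spam1, the other hyaluronidase, averaged 0.90 ± 0.29 in KO and 1.27 ± 0.18 in control. The lysozyme-like genes averaged 3.57 ± 0.04 in KO and 4.00 ± 0.28 in control for Spaca3, and -0.34 ± 0.46 in KO and 0.17 ± 0.63 in control for Spaca5.
Spaca7, released when the acrosome opens, averaged 4.16 ± 0.12 in KO and 4.48 ± 0.17 in control. Neither Spaca3 nor Spaca7 overlapped between genotypes, and neither passed the test. Acrv1, the matrix protein SP-10, averaged 3.19 ± 0.44 in KO and 3.54 ± 0.36 in control. Zpbp2, the relative of Zpbp, averaged 5.39 ± 0.14 in KO and 5.60 ± 0.19 in control, and its second probe gave -0.28 ± 0.42 (SE), close to -0.21 ± 0.26 (SE) from the first.

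Zp3r, a zona-binding matrix protein, was the least even member. It read 1.84, -1.12 and 1.05 on KO and -0.98, 2.02 and 1.55 on control germ arrays, with KO mouse 86 and control mouse 99 both low. Among 6 germ arrays those of mice 86 and 99 were the 2 lowest for Acr, Actl9, Fam71f1, Pick1 and Zp3r (5 of 37 members, 22.6% of all genes). They were the 2 highest for Acrv1, Dpy19l2, Gopc and Tmprss12 (4 of 37, 19.3% of all genes). Leaving out mouse 86 gave a median difference of -0.32 with 29 of 37 members lower, and leaving out mouse 99 gave -0.26 with 33 of 37 lower.
Acrbp shows that the pattern can depend on the probe. Probe A_52_P510179 read 1.42, -0.91 and 1.62 on KO and -0.92, 0.81 and 1.83 on control germ arrays, low in mice 86 and 99. Probe A_55_P2114074, which stands for the gene, read 5.83, 5.32 and 5.84 on KO and 5.76, 5.49 and 5.80 on control germ arrays, and A_51_P356265 read 3.94, 3.68 and 4.12 on KO and 4.09, 3.91 and 4.38 on control germ arrays. Neither of these was low in both mice.

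**Figure D3:**
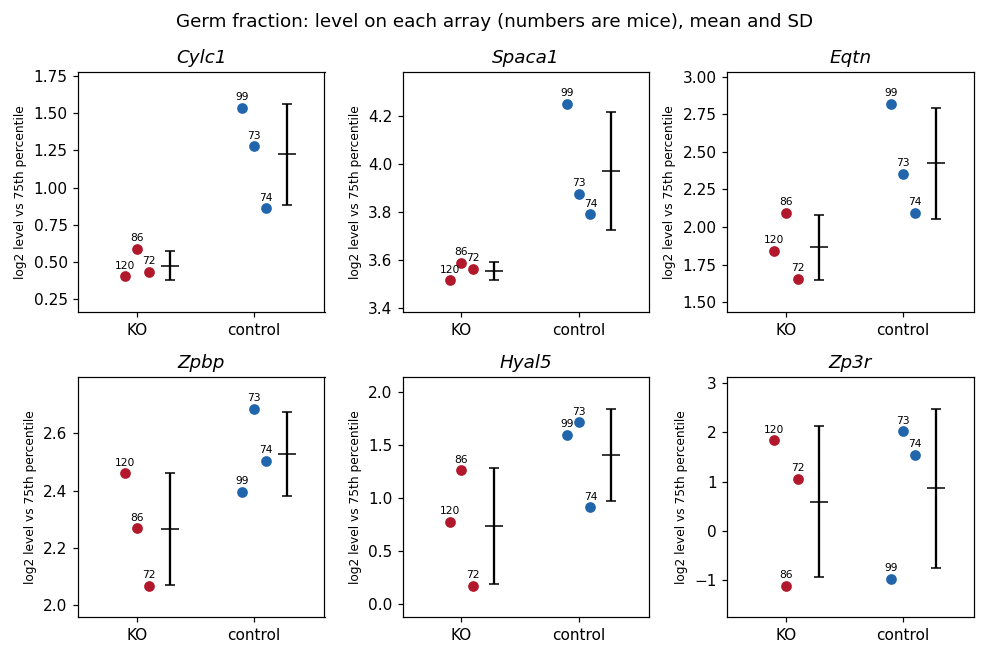
Germ fraction level (log2 relative to the 75th percentile) of the 5 genes with the smallest p and of Zp3r on each array, KO left and control right, with the mean and SD of 3 mice beside the points. Cylc1, Spaca1 and Eqtn do not overlap between genotypes, and Zp3r is low in KO mouse 86 and control mouse 99.

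The 10 genes of the acrosomal membrane, of egg binding and of fusion had a median germ difference of -0.41, and all 10 lay below 0. Spaca1, an inner acrosomal membrane protein that shapes the vesicle, read 3.52, 3.59 and 3.56 on KO and 4.25, 3.88 and 3.79 on control germ arrays. The groups did not overlap, the difference was -0.42 ± 0.23 (SE) (adjusted p = 0.830), and the second probe gave -0.47 ± 0.26 (SE). Eqtn, which encodes equatorin of the acrosomal membrane, read 1.84, 2.09 and 1.66 on KO and 2.82, 2.35 and 2.10 on control germ arrays, -0.56 ± 0.32 (SE) (adjusted p = 0.856). Its groups did not overlap with this probe, while on the second (A_55_P1969414) KO mouse 86, at 1.51, stood above control mouse 74, at 1.20.

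Tmem190, of the inner acrosomal membrane, read 3.59, 3.86 and 3.65 on KO and 4.36, 4.02 and 4.04 on control germ arrays, -0.44 ± 0.31 (SE). It was lower in KO on every array but did not pass (adjusted p = 0.949). Izumo1 averaged 0.71 ± 0.33 in KO and 1.12 ± 0.39 in control, and Izumo2 2.97 ± 0.17 in KO and 3.45 ± 0.15 in control. Izumo3 averaged 2.66 ± 0.25 in KO and 3.17 ± 0.41 in control, and its second probe gave a difference of -0.47 ± 0.39 (SE), near -0.51 ± 0.35 (SE) from the first. Izumo4 averaged 3.45 ± 0.21 in KO and 3.55 ± 0.09 in control, and its difference had the narrowest 95% interval of the family, -0.50 to 0.29. Of these only Izumo2 did not overlap.
Spaca4, a sperm surface protein that helps bind the mouse zona, averaged 2.90 ± 0.41 in KO and 3.17 ± 0.23 in control. Spesp1, a protein of the equatorial segment, averaged 1.54 ± 0.01 in KO and 1.85 ± 0.17 in control. Crisp2, a cysteine-rich protein of acrosome and tail, averaged 2.99 ± 0.21 in KO and 3.23 ± 0.02 in control. Spesp1 and Crisp2 did not overlap between genotypes, Spaca4 did.

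The 4 surface and protease genes had a median germ difference of -0.17. Tex101, a surface protein needed for ADAM3 on mouse sperm, read 4.40, 4.59 and 4.62 on KO and 4.97, 4.38 and 4.64 on control germ arrays, overlapping. Prss55 averaged 3.54 ± 0.15 in KO and 3.99 ± 0.10 in control with no overlap. Prss21, the protease testisin, averaged 2.99 ± 0.28 in KO and 3.08 ± 0.08 in control, and Tmprss12 1.67 ± 0.24 in KO and 1.87 ± 0.30 in control, each with overlap.

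The 5 genes of acrosome biogenesis had a median germ difference of -0.24. Spata16 averaged 3.27 ± 0.15 in KO and 3.38 ± 0.06 in control, and Dpy19l2, which anchors the acrosome to the nucleus, 2.0 ± 0.37 in KO and 2.24 ± 0.39 in control. Fam71f1, also needed to form the acrosome, averaged 1.33 ± 0.63 in KO and 1.6 ± 0.60 in control. Its second probe gave -0.23 ± 0.49 (SE), against -0.27 ± 0.47 (SE) from the first. Pick1 averaged -0.65 ± 0.86 in KO and -0.85 ± 0.83 in control, and Gopc 0.09 ± 0.52 in KO and 0.37 ± 0.63 in control. All 5 overlapped between genotypes, and the SD within each genotype exceeded the difference for Dpy19l2, Fam71f1, Pick1 and Gopc.

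The 5 genes of the perinuclear theca and head skeleton had a median germ difference of -0.39. Cylc1, a cylicin that lines the nucleus in the theca, had the smallest p of all members. It read 0.40, 0.59 and 0.43 on KO and 1.53, 1.28 and 0.86 on control germ arrays, -0.75 ± 0.35 (SE) (95% interval -1.53 to 0.04, adjusted p = 0.718). The KO arrays lay close together and below all controls, among which mouse 74 was nearest. Cylc2, the other cylicin, averaged 2.63 ± 0.02 in KO and 3.09 ± 0.14 in control, also without overlap.
Actl7a, an actin-like protein that fixes the acrosome to the nucleus, read 4.38, 4.16 and 4.22 on KO and 4.48, 4.59 and 4.56 on control germ arrays, -0.29 ± 0.41 (SE). Capza3, a testis actin-capping subunit, averaged 4.02 ± 0.11 in KO and 4.41 ± 0.14 in control. Actl9, a partner of ACTL7A, averaged 3.21 ± 0.46 in KO and 3.28 ± 0.51 in control. Actl7a and Capza3 did not overlap between genotypes, Actl9 did.

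In the Sertoli fraction 0 of 37 members rose and 0 fell between genotypes (limma, adjusted p below 0.05), and 0.0% of all tested genes passed. At an unadjusted p below 0.05 there were 6 members lower in KO, against 2.38% of all genes, and 0 higher, against 0.643%. Of 37 members 29 lay below 0 (65.2% of all genes), and the median difference was -0.32 against -0.10 over all genes. These figures include the 17 members at background on every Sertoli array, all 17 of which lay below 0 with a median of -0.44, and 4 of the 6 members counted at an unadjusted p below 0.05 are among them. Of the 15 members above background on all 6 Sertoli arrays 8 lay below 0, the median was -0.04, and 2 (Spaca7 and Spink2) were at an unadjusted p below 0.05. In 5 of 37 the arrays did not overlap with KO lower (4.85% of all genes), and in 0 with KO higher (1.87%). Among these 5 are Izumo2, Acrv1 and Spaca3, at background on every Sertoli array.

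One array carried much of this. The control Sertoli array of mouse 74 was the highest of 6 for 29 of 37 members and for 47.4% of all genes. Without mouse 74 the median difference was 0.07, with 17 of 37 members below 0. Without both control mice titled het, which leaves only the control mouse titled WT, it was 0.07, with 15 of 37 below 0. Within slides 1, 2 and 3 it was -0.03, 0.09 and -1.13, and only the third slide holds mouse 74. Elongating spermatid markers summed to 4.13 on that array, against 1.26 to 1.36 on KO and 1.59 and 2.06 on the other control Sertoli arrays. The part of germ cell RNA or of its low signal in the members' readings was not tested.

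**Figure D4:**
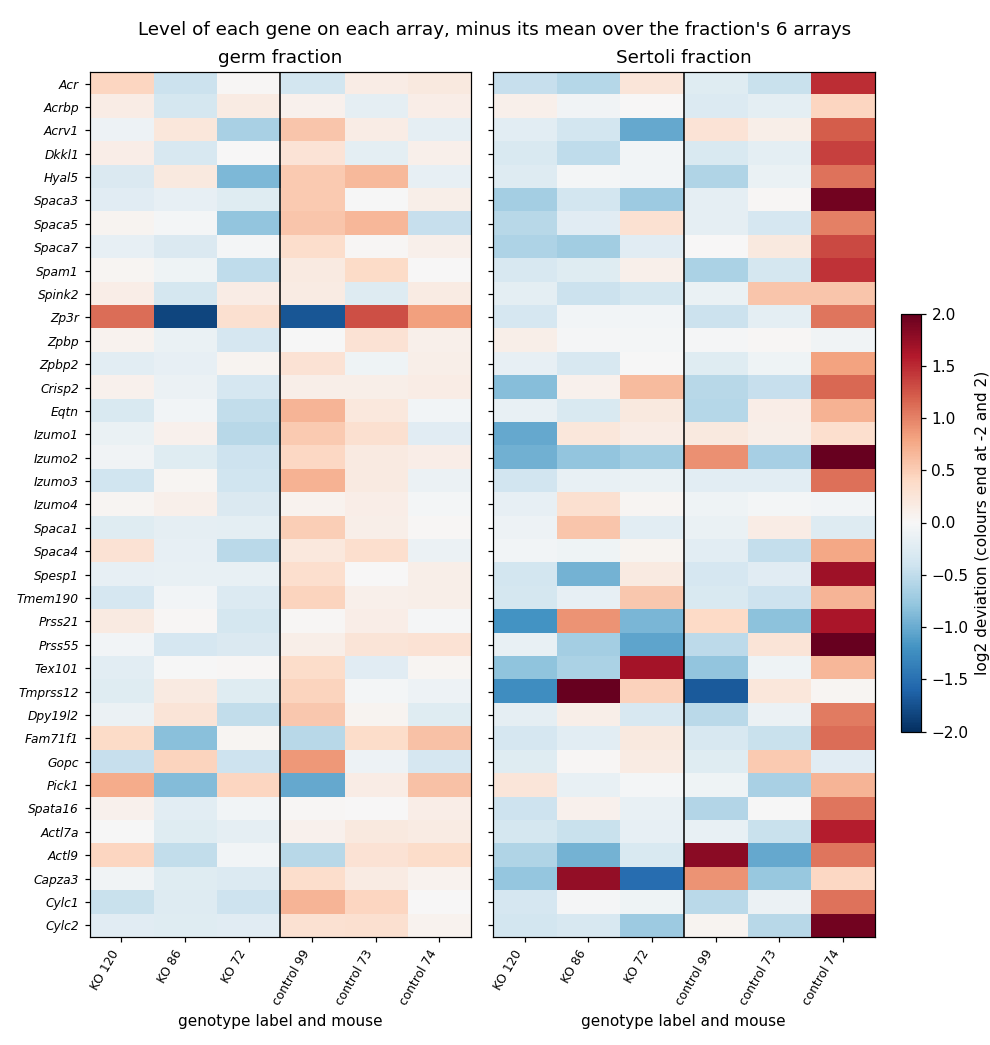
Deviation of each gene on each array from its mean over the 6 arrays of the fraction (log2, colours end at -2 and 2), germ fraction left and Sertoli fraction right, KO arrays left of control arrays. The Sertoli array of control mouse 74 is the highest of its 6 arrays for 29 of 37 genes, and Zp3r is lowest in germ arrays of mice 86 and 99.

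The 5 members of smallest p in the Sertoli fraction were Spaca7, Izumo2, Acrv1, Spink2 and Spaca3, each with an adjusted p of 0.9996. Spaca7 read -6.28, -6.36 and -5.89 on KO and -5.64, -5.46 and -4.34 on control Sertoli arrays, -1.03 ± 0.31 (SE). Spink2 read -2.13, -2.36 and -2.29 on KO and -2.08, -1.39 and -1.38 on control Sertoli arrays, -0.65 ± 0.24 (SE). In both all 3 KO arrays lay below all 3 control arrays, and without mouse 74 the differences were -0.62 and -0.53. Izumo2, Acrv1 and Spaca3 were not well above background on any Sertoli array, so their readings are not taken as a difference.
Izumo2 read -9.09, -8.92 and -8.82 on KO and -7.21, -8.80 and -5.93 on control Sertoli arrays. Acrv1 read -7.84, -7.99 and -8.64 on KO and -7.34, -7.50 and -6.41 on control Sertoli arrays. The highest reading in each was that of mouse 74, as in Spaca3 above.

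Among members above background on all 6 Sertoli arrays, some differed little between genotypes. Zpbp read -3.51, -3.64 and -3.66 on KO and -3.64, -3.59 and -3.69 on control Sertoli arrays, and Tmem190 averaged -4.94 ± 0.47 in KO and -4.97 ± 0.60 in control. Spaca1 averaged -3.18 ± 0.41 in KO and -3.34 ± 0.20 in control, and Acrbp differed by 0.02 ± 0.23 (SE). Dkkl1 differed by -0.57 ± 0.39 (SE), Acr by -0.53 ± 0.47 (SE) and Zpbp2 by -0.32 ± 0.26 (SE), each with mouse 74 highest. Second probes gave -0.88 ± 0.42 (SE) for Zpbp2, -0.48 ± 0.36 (SE) for Eqtn and 0.32 ± 0.26 (SE) for Spaca1. The other probes of Acrbp gave -0.18 ± 0.33 (SE) and -0.32 ± 0.93 (SE). Eqtn averaged -4.87 ± 0.26 in KO and -4.69 ± 0.64 in control, Spaca4 -3.77 ± 0.08 in KO and -3.72 ± 0.66 in control, and Tex101 -5.48 ± 1.38 in KO and -5.63 ± 0.73 in control.
Tex101 was raised on the array of KO mouse 72, at -3.89, over -6.35 and -6.19 in the other KO mice. Pick1 averaged -3.86 ± 0.21 in KO and -3.89 ± 0.66 in control.

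Of the genes above background on some Sertoli arrays, Fam71f1 averaged -6.49 ± 0.28 in KO and -6.24 ± 0.87 in control, and Actl7a -6.67 ± 0.15 in KO and -6.03 ± 1.09 in control. Actl9 read -6.58, -6.92 and -6.27 on KO and -4.16, -6.99 and -4.91 on control Sertoli arrays, with mouse 99 highest. Capza3 read -7.39, -4.87 and -8.15 on KO and -5.73, -7.37 and -6.22 on control Sertoli arrays, and Tmprss12 -9.00, -5.56 and -7.30 on KO and -9.44, -7.54 and -7.71 on control Sertoli arrays. In these last genes KO mouse 86 was highest. The remaining members at background averaged between -9.00 (Dpy19l2) and -7.27 (Crisp2) on KO and between -8.74 (Dpy19l2) and -7.19 (Crisp2) on control Sertoli arrays.

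The difference between both genotype comparisons, Sertoli minus germ, was tested as an interaction. It passed in 0 of 37 members in either direction (0.00399% of all genes each way), with 0 members at an unadjusted p below 0.05 (0.487% of all genes higher and 4.09% lower). The members' median was -0.02 against -0.09 over all genes, and 19 of 37 lay below 0 (60.5% of all genes). Of the 15 members measured on all Sertoli arrays 6 lay below 0, with a median of 0.22, and the readings of the 17 at background enter the other figures. Within slides 1, 2 and 3 the members' median was 0.12, 0.38 and -0.75, so the slide with mouse 74 stood apart here as well. The interaction and both fraction comparisons use the same arrays as the genotype comparisons and are not independent of them.

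Other genes of the same processes were taken from lists. In the germ fraction 0 genes passed between genotypes in any of 6 lists, where 0.216% of all genes rose and 0.00399% fell. Median KO minus control differences were -0.23 for 12 fusion and binding factors, -0.18 for 24 genes of acrosome biogenesis and transport, and -0.25 for 12 chaperones and maturation factors of surface proteins. They were -0.12 for 13 genes of acrosomal exocytosis, -0.13 for 15 other testis proteases and lysozyme-like genes, and -0.41 for 13 of the theca and head skeleton. All 6 medians lay below that of all genes, -0.04.

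B4galt1, a galactosyltransferase of the sperm surface, came nearest to the threshold, at 0.91 ± 0.16 (SE) in the germ fraction (adjusted p = 0.0527). Its level was 0.64 in KO and -0.27 in control germ fractions, so it ran against the list's median. Cd46, a complement regulator of the acrosomal membrane, differed by -0.55 ± 0.28 (SE). Spink8, a protease inhibitor related to Spink2, differed by 2.29 ± 0.46 (SE) (adjusted p = 0.0963) and the lysozyme-like Lyzl4 by -0.42 ± 0.24 (SE). B4galt1 and Spink8 were thus higher in KO means, without passing.
The testis chaperones Calr3 and Pdilt, which fold sperm surface proteins, differed by -0.61 ± 0.24 (SE) and -0.45 ± 0.22 (SE). For biogenesis the smallest p were those of Tmf1, a Golgi protein, at -0.36 ± 0.19 (SE), and Spag4, of the nuclear envelope, at -0.40 ± 0.22 (SE). For the theca list they were those of Cabs1 at -0.76 ± 0.51 (SE) and Spem1 at -0.54 ± 0.37 (SE). For exocytosis they were those of Nsf at -0.25 ± 0.22 (SE) and Napa at -0.26 ± 0.26 (SE), both of the machinery that recycles SNARE proteins.

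In the Sertoli fraction 0 genes of these lists passed between genotypes, and 0.0% of all genes did. The smallest adjusted p, 0.281, was that of Pdilt, which was not well above background on any Sertoli array. The smallest p of the protease list was that of Prss46, which differed by -0.86 ± 0.26 (SE), and that of the biogenesis list was that of Pfn4, a testis profilin, at 0.48 ± 0.17 (SE).

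In Sertoli relative to germ arrays of control mice, where 36.5% of all genes fell and 39.8% rose, all 15 testis proteases and lysozyme-like genes fell, with Prss39 at least 4370-fold, Prss52 at least 1228-fold and Prss44 at least 1225-fold lower. Of 24 biogenesis genes 20 fell, with Sun3 at least 1700-fold lower, and 1 rose, the vesicle GTPase gene Rab3a by 1.58. Of 12 fusion factors 9 fell, among them Plcz1, the egg-activating phospholipase, at least 2700-fold, and Wbp2nl at least 1095-fold lower.
Those that rose in that list were Cd9, a tetraspanin that on the egg side is needed for fusion, by 5.83, and B4galt1 by 4.70. Of 12 chaperones 11 fell, with Cmtm2b at least 1865-fold and Pdilt at least 2049-fold lower, and the sulphotransferase gene Tpst2 rose by 3.13. Of 13 theca genes 9 fell, with Spata46 at least 5115-fold lower, and 3 rose, Hook3 by 3.76, Capza2 by 2.27 and Capzb by 0.57.
Of 13 exocytosis genes 4 fell and 4 rose, led by Plcd4, which fell by 9.38, and Nsf, which rose by 2.09, neither count above the share of all genes. In KO mice, where 37.1% of all genes fell, the same lists gave 9 of 12 fusion factors, 20 of 24 biogenesis genes, 11 of 12 chaperones, 4 of 13 exocytosis genes, 15 of 15 proteases and 9 of 13 theca genes fallen. The genes given as at least so many fold lower were below background on all Sertoli arrays and passed the filter through germ arrays alone. For these a fall follows from the filter, so the counts of these lists are not support for a difference between fractions. The comparisons in KO and control mice share no arrays but use the same filter.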

How the data were processed

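Gene expression was measured on 12 one-colour Agilent mouse arrays (Cy3). The deposited scanner tables, made with Feature Extraction 10.7.3.1 per the file headers, give an intensity per spot that is background-subtracted and detrended per the file headers, and not scaled between arrays. A deposited log2 table holds the authors' own processed values, used here as an alternative, and the submitters' processing notes name limma.

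Each array's log2 intensity was taken relative to its 75th percentile, without control and outlier spots. A probe was kept where some group had it well above background in each of its 3 arrays (30538 of 39429 probes), and the probe of highest mean stood for a gene. Accessions gave RefSeq symbols (GRCm38.p6) to 26049 probes, and 13380 kept the name in the file. A limma 3.58.1 fit (R 4.3.3) of 4 group means over 12 arrays gave moderated tests, adjusted by Benjamini-Hochberg over 25035 genes at 0.05. The fit was also run on simulated data with changes larger than any member's germ difference between genotypes and no shared mouse effects. That run does not cover differences as small as those of the members. All comparisons share this fit, so the SE of a gene pools its spread over the 4 groups. The number of arrays limits the precision.

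Replicates are different mice. Both fractions came from the same mouse, so mouse numbers pair them: the correlation of their deviations ran from -0.16 to 0.46. The members and gene lists were chosen with earlier results of these data known. Named genes were the 5 members of smallest p between genotypes, the 3 of largest difference between fractions and the gene of highest signal per role, beside group means for all members. Alternatives were quantile, median and normexp processing, stricter filtering, slide or mouse as a block, and leaving out mice. The normexp setting used spot medians, since means were not in the files used here.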

Additional observations from a re-analysis of the deposited data

How the results depend on the processing

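No member passed the threshold between genotypes, or in the interaction, under any alternative run. Between fractions 36 of 37 members fell under every setting except the filter that requires signal on all 12 arrays, which tests only 15 members, of which 14 fell in KO and 14 in control mice. The members' median in the germ fraction, KO minus control, was -0.44 without the control mice titled het, which leaves only the control mouse titled WT. It was -0.49 within slide 1. In the Sertoli fraction the median was -1.13 within slide 3. For Sertoli minus germ in KO mice it was -7.80 with normexp, -8.78 with median centring, -7.37 with the all-array filter and -9.16 within slide 3. In control mice it was -7.33 with normexp, -7.32 with the all-array filter and -8.55 within slide 3, and the interaction's was -0.75 within slide 3. The cause was not tested.

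Leaving out each mouse in turn gave medians of -0.36 to -0.23 in the germ fraction, -0.59 to 0.07 in the Sertoli fraction, -9.92 to -9.44 between fractions in KO mice, -10.14 to -9.36 in control mice and -0.28 to 0.26 for the interaction. Members at an unadjusted p below 0.05 then numbered 0 to 6 in the germ and 3 to 8 in the Sertoli fraction. Over all genes 55 passed in the germ fraction, 1 to 130 over the alternatives. In the Sertoli fraction 0 passed, 0 to 5 over the alternatives, and in the interaction 2, 0 to 7. Between fractions 18778 passed in KO mice (12986 to 22796) and 19114 in control mice (13357 to 23175). With the mouse as a random replicate block these counts were 55, 0, 2, 19140 and 19513, and the paired fit changed no call of a member. Median centring moved the median of all genes between fractions to 0.94 in KO mice and 0.88 in control mice. Signals near background limit the Sertoli values to bounds for 17 members in KO and 18 in control mice.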
